A study of Mus musculus with 7 samples.

Results

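The Kcnq1 domain is a cluster of imprinted genes on distal mouse chromosome 7, and 10 of its protein-coding genes were followed here by name across every library: Ascl2, Tspan32, Cd81, Tssc4, Kcnq1, Cdkn1c, Slc22a18, Phlda2, Nap1l4 and Osbpl5. They were chosen by symbol, with no filter on their level, from 27179 genes in the count files, and all 10 were found. From the start of Ascl2 to the end of Osbpl5 the domain spanned 790.2 kb (mm10, chromosome 7, 142966829 to 143756985), and 18 genes of the files lay inside it. Expression had been measured by RNA-seq in 7 lymphoma cell lines from end stage tumours of male C57BL/6 mice, and all 7 carried the Eµ-Myc transgene, which places Myc under the immunoglobulin heavy chain enhancer and so drives it in B lineage cells. Of these, 3 lines were wild-type for Smchd1, and 4 were Smchd1 null, described by the labels as homozygous for a gene trap and written with the MD1 allele in the methods of the study. Smchd1 is a non-canonical SMC protein with a part in X inactivation and in silencing at several imprinted clusters, so the comparison asks which genes of the cluster have another level when Smchd1 is absent. Each library is taken here as 1 cell line, and the labels do not say whether the lines came from separate mice. The p-values below measure only the spread between these samples. In such bulk samples fewer cells of a type and less RNA per cell cannot be told apart.

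Imprinted genes are read mainly from the copy inherited from one parent. In this domain the long noncoding RNA Kcnq1ot1 starts inside Kcnq1, at the element that controls imprinting of the cluster, and runs antisense to it from the paternal copy. In the mouse the genes nearest this element, such as Cdkn1c, Phlda2, Slc22a18 and Kcnq1, are silenced in cis on the paternal copy in many tissues, and genes farther away, such as Ascl2, Cd81, Tssc4, Nap1l4, Tspan32 and Osbpl5, are imprinted mainly in the placenta. All 7 lines had the same labelled strain and the files hold 1 count per gene, so the parental copies cannot be told apart and every value below is the sum over both.

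The sequences shown are the 250 bases before the annotated start of 4 genes of the cluster (RefSeq, GRCm38.p6, 5′ to 3′ on the strand of the gene), with CG dinucleotides in capitals. Kcnq1ot1 (chr7:143296548-143296797, minus strand) is shown as the antisense RNA of the cluster, Ascl2 (chr7:142969265-142969514, minus strand) and Trpm5 (chr7:143094643-143094892, minus strand) because their counts came mainly from 1 line, and Cd81 (chr7:143052500-143052749, plus strand) for its spread between lines.
Kcnq1ot1: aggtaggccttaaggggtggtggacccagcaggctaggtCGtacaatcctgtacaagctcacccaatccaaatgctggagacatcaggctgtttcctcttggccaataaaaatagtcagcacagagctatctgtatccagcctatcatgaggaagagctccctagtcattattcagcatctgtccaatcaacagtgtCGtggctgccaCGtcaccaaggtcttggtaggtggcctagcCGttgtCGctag
Ascl2: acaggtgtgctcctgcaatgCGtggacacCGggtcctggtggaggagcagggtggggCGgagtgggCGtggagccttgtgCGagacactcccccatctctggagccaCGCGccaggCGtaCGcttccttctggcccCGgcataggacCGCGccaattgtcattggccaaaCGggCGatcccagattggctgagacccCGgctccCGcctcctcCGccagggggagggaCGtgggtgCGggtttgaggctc
Trpm5: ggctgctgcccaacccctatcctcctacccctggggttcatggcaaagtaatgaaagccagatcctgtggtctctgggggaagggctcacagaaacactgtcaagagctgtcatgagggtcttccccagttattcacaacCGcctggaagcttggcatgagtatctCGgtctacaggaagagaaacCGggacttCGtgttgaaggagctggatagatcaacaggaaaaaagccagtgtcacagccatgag
Cd81: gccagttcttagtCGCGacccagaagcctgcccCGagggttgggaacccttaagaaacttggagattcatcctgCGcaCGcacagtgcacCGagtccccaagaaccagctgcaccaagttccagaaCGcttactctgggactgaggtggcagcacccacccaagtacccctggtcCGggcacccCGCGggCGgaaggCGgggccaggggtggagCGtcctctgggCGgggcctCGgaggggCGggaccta
The windows of Ascl2 and Cd81 held 19 and 16 CG dinucleotides, those of Kcnq1ot1 and Trpm5 held 5 and 4, and the median over 27025 mouse promoters of the same length was 6. Letters were searched on both strands. The CCAAT box (CCAAT) matched 3 times in the window of Ascl2 and 3 times in that of Kcnq1ot1, and 34.5% of all promoters held it. The GC box (GGGCGG) matched 3 times in the window of Cd81 and 1 time in that of Ascl2, and 32.9% of all promoters held it. The E-box CACGTG (6.05% of promoters) and the TATA box TATAAA (13.0%) matched in none of these 4 windows. Trpm5 held none of the 4 motifs. These matches are a description of letters.

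The libraries held between 3626853 and 7519549 counts assigned to genes, so that 3 counts, used here as the floor below which a level cannot be told from absence, corresponded to 0.399 to 0.827 CPM, that is, counts of a gene scaled to the same total in every library. Smchd1 was at 219 to 248 CPM in wild-type lines and at 22.6 to 28.7 CPM in Smchd1 null lines (log2 fold change -3.16, limma false discovery rate (FDR) 2.18e-05), as the labels have it. B lineage markers were present in every line, with a sum over 7 genes of 1125 to 1521 CPM in wild-type and 472 to 2103 CPM in Smchd1 null lines, while T cell markers summed to at most 0.532 CPM. Of the 7 B lineage markers 1 was higher in Smchd1 null lines (Cd79a, a B cell receptor subunit, log2 fold change 0.96, limma FDR 0.0445) and 1 was lower (Ebf1, a B lineage transcription factor, -0.67, limma FDR 0.0494), where 11.9% of all genes tested passed. With voom alone neither did (limma FDR 0.751 for Cd79a and 0.444 for Ebf1), and Cd79a was lower in Smchd1 null replicate 4 than in any wild-type line. Myeloid markers summed to 0.296 to 26.2 CPM, endothelial markers to 1.45 to 4.39 CPM, erythroid markers to at most 0.82 CPM and fibroblast markers to at most 9.37 CPM. None of these markers passed the test, and none of the T cell and fibroblast markers was retained for it.

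A pair of libraries stood apart from their groups. Wild-type replicate 1 was the only library of batch 1 and of single-end sequencing, had the fewest counts, and received a sample weight of 0.246. Smchd1 null replicate 4 received a weight of 0.249 and was the farthest from its own group, and it had the lowest sum of B lineage markers of all 7 lines, 472 CPM. The weights of the other 5 libraries ran from 0.831 to 3.78. The largest, 3.78 and 3.06, belonged to wild-type replicates 2 and 3. These were closer to each other than any other pair but differed by more than sampling noise. Their squared count differences, relative to sampling noise, had a mean of 3.96 per gene, against 18.1 to 70.8 in other pairs. Whether this pair came from separate lines was not tested, and the tests here treat its libraries as separate samples. Batch 1 held samples of 1 group only, so that only batch 2 could be compared on its own, as the fit without wild-type replicate 1.

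Of the 10 genes, 6 passed the filter for low counts (at least 0.5 CPM in at least 3 libraries) and 1 of these 6, Cdkn1c, was differentially expressed (DE, FDR under 0.05 over all genes tested) with voom and sample weights, where 11.9% of the 12303 genes tested were DE. Cdkn1c was higher in Smchd1 null lines. It passed the filter through that group, since of the wild-type lines only replicate 1 (0.551 CPM) reached 0.5 CPM, and every wild-type value was under the floor. With no filter its limma FDR was 0.0152. The median log2 fold change of the 6 genes was 0.20, with 4 of 6 above 0, and that of all genes was -0.0058. None of the 6 was DE with voom alone or with edgeR's quasi-likelihood test, which each called 0.0975% of genes, or with DESeq2, which called 3.1%. The edgeR test called 12 genes and had 1416 at an unadjusted p under 0.05. Cdkn1c was also the only one of the 6 whose groups did not overlap in CPM. Among all genes tested 6.35% did not overlap and were higher in Smchd1 null lines and 6.85% did not overlap and were lower.

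**Figure D1:**
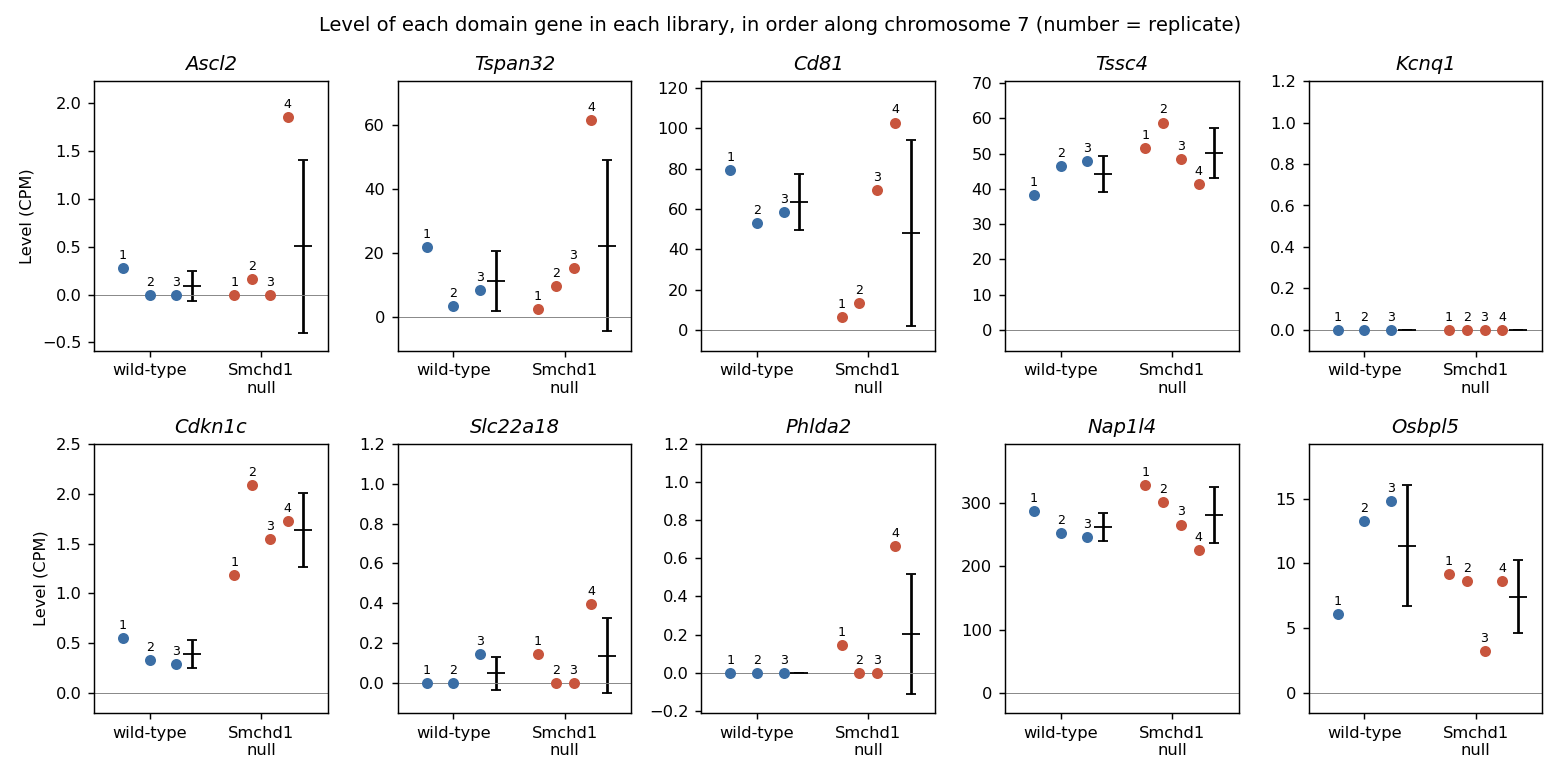
Level of the 10 genes (CPM, linear axis, 1 panel per gene in order along the chromosome) in the 3 wild-type lines (blue) and 4 Smchd1 null lines (red), with the replicate number at each point and the group mean and SD in black. Groups separate for Cdkn1c, Smchd1 null replicate 4 lies highest for Ascl2, Tspan32 and Cd81, and Kcnq1 is at 0 throughout.

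Set side by side per length of counted exon (RPKM, which is CPM divided by kilobases of exon, mean ± SD over all 7 lines), Nap1l4 had the highest level of the 10 genes at 119.6 ± 15.4, and it was above Cd81 in 7 of 7 lines. Cd81 followed at 36.0 ± 22.8 and Tssc4 at 34.1 ± 4.79, an order that held in only 5 of 7 lines and so was not set apart from the spread. Tspan32 was at 9.62 ± 11.2 RPKM and Osbpl5 at 2.23 ± 0.969, an order that also held in only 5 of 7 lines. Osbpl5 was above Cdkn1c (0.568 ± 0.372) in 6 of 7 lines, and Cdkn1c was above Ascl2 in 6 of 7 lines. Ascl2 (0.204), Phlda2 (0.158), Slc22a18 (0.0608) and Kcnq1 (0) closed the order, and each was above the next in at most 3 of 7 lines. Among these 10 genes the 5 lowest levels thus belonged to Ascl2 and to the 4 genes named above as silenced on the paternal copy in many tissues. Whether imprinting has a part in these levels was not tested, since the parental copies cannot be told apart.

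Cdkn1c (chromosome 7, 143458339 to 143461050, minus strand) encodes p57Kip2, an inhibitor of cyclin-dependent kinases that restrains the G1 phase and growth of the embryo and placenta. It had 2 counts in each of the 3 wild-type libraries, and 8, 13, 10 and 13 counts in Smchd1 null replicates 1 to 4. Scaled for depth these were 0.551, 0.328 and 0.293 CPM against 1.18, 2.09, 1.54 and 1.73 CPM. Every wild-type value was under the floor of its library and every Smchd1 null value was above it, so the groups did not overlap, but all values were low. The group means were 0.391 ± 0.140 CPM (SD, n = 3) and 1.64 ± 0.376 CPM (SD, n = 4). By counts summed over libraries the ratio was 4.50 (95% exact interval 1.91 to 12.9), which covers counting error only, for 6 counts against 44. The log2 fold change with sample weights was 2.11 (SE 0.40, limma FDR 0.0199). In an exact permutation test (two-sided) of the difference in mean CPM the labelled split gave the largest difference of all 35 (p = 0.0286), the smallest p that 3 against 4 lines can give.

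Cdkn1c kept the direction of its log2 fold change in every fit tried, at values between 1.75 and 2.21, but its call did not hold in all of them. Fitted without sample weights (voom alone) its FDR was 0.264. The FDR was 0.0620 with block weights (separate weights for the 2 libraries that stood apart and a shared one for the rest), 0.214 with edgeR and 0.205 with DESeq2. Within batch 2, that is without wild-type replicate 1, it was 0.0288 in limma, and without Smchd1 null replicate 4 it was also 0.0288. With both of these left out and voom alone the log2 fold change was 2.08 (limma FDR 0.110). Without wild-type replicate 2 the limma FDR was 0.881 and without wild-type replicate 3 it was 0.843, settings in which 1 gene of all those tested was DE, and with these libraries summed into 1 it was 0.806, while it was 0.0667 without Smchd1 null replicate 2. Of the exon bases of Cdkn1c, 30.3% are shared with the predicted gene Gm44732 on the other strand, and the library kit does not mark strand, so reads of the pair cannot be told apart there.

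**Figure D2:**
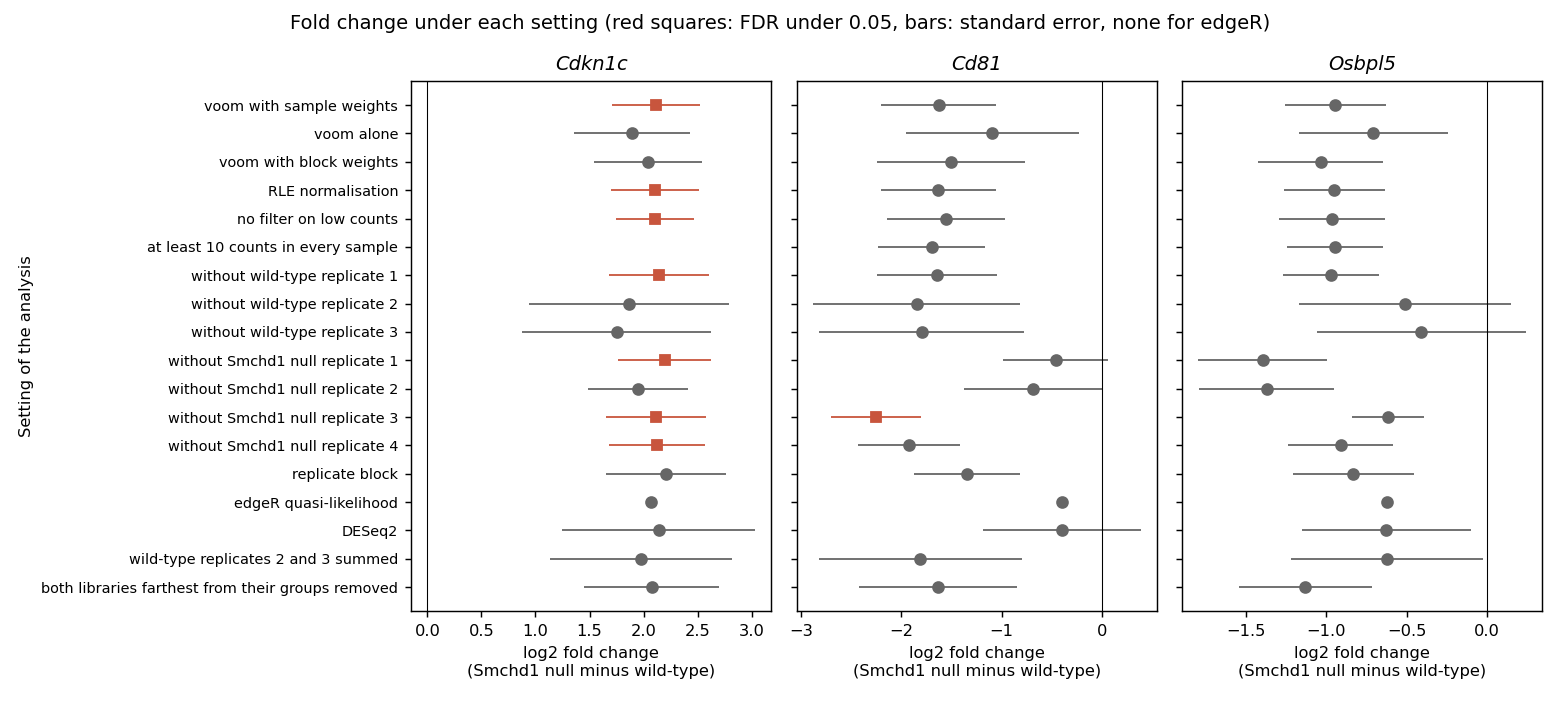
Log2 fold change (Smchd1 null minus wild-type) of Cdkn1c, Cd81 and Osbpl5 under each setting of the analysis (rows), with its standard error as a bar (none for edgeR) and red squares where the FDR was under 0.05. Cdkn1c stays between 1.75 and 2.21 while its call comes and goes, Cd81 is called only without Smchd1 null replicate 3, and Osbpl5 is called in no setting. Cdkn1c has no value where at least 10 counts were required in every library.

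The next genes beyond Cdkn1c, Slc22a18 and Phlda2, had almost no reads. Slc22a18, an organic cation transporter-like protein (chromosome 7, 143473736 to 143499334, plus strand), starts 12.7 kb beyond Cdkn1c and had 0, 0 and 1 counts in wild-type and 1, 0, 0 and 3 counts in Smchd1 null lines. Phlda2, a pleckstrin homology domain protein that limits placental growth (chromosome 7, 143501545 to 143503150, minus strand), is 2.2 kb farther on and had no count in wild-type lines and 1, 0, 0 and 5 counts in Smchd1 null lines. The 5 counts of Phlda2 in Smchd1 null replicate 4 (0.665 CPM, 95% exact interval 0.216 to 1.55) were its only value above the floor, and Slc22a18 had none above it. In exact permutation tests of mean CPM p was 0.543 for Slc22a18 and 0.429 for Phlda2. Both genes were not detectably different at this depth.

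Kcnq1, a voltage-gated potassium channel subunit of heart and epithelia (chromosome 7, 143106362 to 143427042, plus strand), had 0 counts in all 7 libraries. Over their 43518807 counts together this allows a level of up to 0.0689 CPM. Its antisense partner Kcnq1ot1 (chromosome 7, 143203458 to 143296549, minus strand) had reads in every line, with 36, 37 and 29 counts (9.93, 6.07 and 4.25 CPM) in wild-type and 45, 26, 56 and 30 counts (6.66, 4.18, 8.65 and 3.99 CPM) in Smchd1 null lines. The groups overlapped throughout. The log2 fold change of Kcnq1ot1 was 0.10 (SE 0.32, limma FDR 0.862), and its sign turned in 8 of 17 other fits (range -0.40 to 0.43). Kcnq1 and Kcnq1ot1 share 121 exon bases, 3.99% of those of Kcnq1, and no read was assigned to Kcnq1. Per length Kcnq1ot1 was low, at 0.0809 ± 0.0347 RPKM in wild-type (n = 3) and 0.0704 ± 0.0266 RPKM in Smchd1 null lines (n = 4). Its few reads were spread over a counted length of 83437 bases. Kcnq1ot1 lies within Kcnq1 and the library kit does not mark strand. Reads from introns of Kcnq1 there cannot be told from those of Kcnq1ot1.

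Nap1l4, a nucleosome assembly protein that carries histones (chromosome 7, 143513579 to 143549106, minus strand), lies 10.4 kb beyond Phlda2 and was the most abundant of the 10 genes. It was at 288, 253 and 247 CPM in wild-type and at 328, 302, 266 and 227 CPM in Smchd1 null lines, with overlapping groups (262 ± 22.1, n = 3, and 281 ± 44.3, n = 4). With sample weights its log2 fold change was 0.23 (SE 0.10, limma FDR 0.162). Tssc4, a splicing factor of the U5 snRNP (chromosome 7, 143069249 to 143071093, plus strand), was about as even, at 38.3, 46.4 and 47.8 CPM in wild-type and at 51.7, 58.8, 48.5 and 41.5 CPM in Smchd1 null lines. Its log2 fold change was 0.18 (SE 0.11, limma FDR 0.314). In exact permutation tests p was 0.543 for Nap1l4 and 0.314 for Tssc4. Both genes varied less between the 4 Smchd1 null lines than the median gene, with an SD of log2 CPM of 0.26 and 0.23 against 0.315 over 12303 genes.

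Osbpl5, an oxysterol-binding-like protein that exchanges lipids between membranes (chromosome 7, 143688762 to 143756985, minus strand), closes the domain. It was at 6.07, 13.3 and 14.8 CPM in wild-type and at 9.18, 8.67, 3.24 and 8.64 CPM in Smchd1 null lines. Wild-type replicates 2 and 3 lay above all other libraries, and wild-type replicate 1 lay among the Smchd1 null lines. Its log2 fold change was -0.94 (SE 0.31, limma FDR 0.0835), and p was 0.229 in the exact permutation test. No fit called Osbpl5, and its log2 fold change ran from -1.40 to -0.41 over the alternatives.

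Cd81, a tetraspanin of the B cell surface (chromosome 7, 143052739 to 143067934, plus strand), differed more between the Smchd1 null lines than between the groups. It was at 79.1, 53.0 and 58.3 CPM in wild-type lines. In Smchd1 null replicates 1 to 4 it was at 6.37, 13.3, 69.2 and 103 CPM. Replicates 1 and 2 lay far under every wild-type line, replicate 3 lay within the wild-type range and replicate 4 above it, a 16.1-fold range against 1.49-fold among wild-type lines. The log2 fold change was -1.63 (SE 0.57, limma FDR 0.0961), with p = 0.571 in the exact permutation test. Without Smchd1 null replicate 3 Cd81 was DE (log2 fold change -2.25, limma FDR 0.0315), and without replicate 1 its log2 fold change was -0.46 (limma FDR 0.604), the range over all alternatives being -2.25 to -0.40. With the least weighted Smchd1 null line, replicate 4, left out, the mean of the other 3 was 29.6 ± 34.4 CPM, 0.467 of the wild-type mean, against 0.755 with it. The antisense gene R74862 shares 30 exon bases with Cd81.

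Tspan32, a tetraspanin of blood cells (chromosome 7, 143005046 to 143019644, plus strand), lies 33.1 kb before Cd81. It was at 21.8, 3.61 and 8.50 CPM in wild-type and at 2.52, 9.80, 15.4 and 61.4 CPM in Smchd1 null lines. The Smchd1 null lines spanned a 24.4-fold range, which took in all wild-type values, and stood in the order of their Cd81 levels. The log2 fold change was 0.59 (SE 0.71, limma FDR 0.605), and p was 0.771 in the exact permutation test. The higher Smchd1 null mean (22.3 against 11.3 CPM) came from replicate 4: without it the mean was 9.25 ± 6.48 CPM (n = 3), 0.819 of that of the wild-type lines. The SD of log2 CPM over the 4 Smchd1 null lines was 1.86 for Cd81 and 1.81 for Tspan32, larger than in 95.7% and 95.4% of the 12303 genes tested. Tssc4, 1.3 kb beyond Cd81, had no such spread, with 1.42-fold between its highest and lowest Smchd1 null line.

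**Figure D3:**
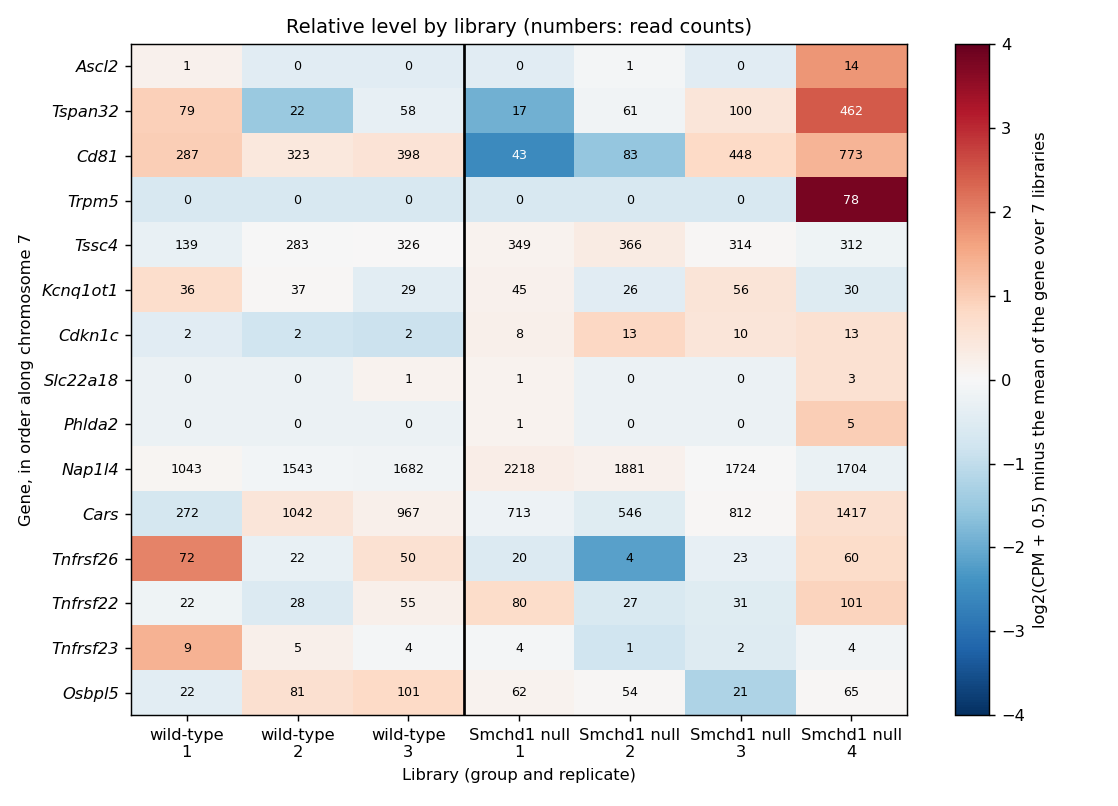
Log2(CPM + 0.5) of 15 genes in order along the domain (rows) in each library (columns, wild-type left of the line), as the difference from the mean of the gene over 7 libraries (colour), with read counts as numbers. Smchd1 null replicate 4 is high for Ascl2, Tspan32, Cd81 and Trpm5. Cdkn1c is pale throughout on this colour scale, with 0.5 added to its low CPM.

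Ascl2, a basic helix-loop-helix factor of trophoblast and intestinal stem cells (chromosome 7, 142966829 to 142969264, minus strand), lies 35.8 kb before Tspan32 and opens the domain. It had 1, 0 and 0 counts in wild-type and 0, 1, 0 and 14 counts in Smchd1 null lines. The 14 counts of Smchd1 null replicate 4 (1.86 CPM, 95% exact interval 1.02 to 3.12) were the only value above the floor, and p was 0.886 in the exact permutation test of mean CPM. Trpm5, a cation channel of taste cells (chromosome 7, 143069153 to 143094642), is encoded on the other strand from Tssc4. Its span takes in Tssc4, but it shares no exon bases with other genes. Trpm5 had 78 counts (10.4 CPM, 95% exact interval 8.20 to 12.9) in Smchd1 null replicate 4 and 0 counts in the other 6 lines, where that allows up to 0.44 to 0.827 CPM. Among the 10 genes followed, Ascl2, Tspan32, Cd81, Slc22a18 and Phlda2 were highest in this line, which was also the deepest library (7519549 counts). Slc22a18 and Phlda2 rested there on 3 and 5 counts. Of the other listed genes inside the domain, Cars (188 CPM) and Tnfrsf22 (13.4 CPM) were also highest in this line. Kcnq1ot1, Tnfrsf26 and Tnfrsf23 were not. Among the 10 genes, this line was the highest of the 7 libraries for 2 of the 6 retained, against 23.8% of all 12303 genes tested. Whether the other traits of this line, such as its low sum of B lineage markers, have a part in these values was not tested.

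The remaining genes in and beside the cluster were taken from a fixed list of 12. Of these, 7 were retained and none was DE in either direction, with a median log2 fold change of 0.07, against 11.9% of all genes. Cars, the cysteinyl-tRNA synthetase, was at 75.0 to 171 CPM in wild-type and at 87.7 to 188 CPM in Smchd1 null lines (log2 fold change -0.54, limma FDR 0.116). The decoy death receptors Tnfrsf22 and Tnfrsf23 and the related Tnfrsf26 lie between Cars and Osbpl5. Tnfrsf26 was at 19.9, 3.61 and 7.33 CPM in wild-type and at 2.96, 0.642, 3.55 and 7.98 CPM in Smchd1 null lines (log2 fold change -1.50, limma FDR 0.183), and its Smchd1 null lines spanned a 12.4-fold range. Tnfrsf23 had a log2 fold change of -1.07 (limma FDR 0.231) and Tnfrsf22 one of 0.11, with overlapping groups in both. Just outside the domain, Nadsyn1, which makes NAD, was at 11.3 to 14.7 CPM in all 7 lines (log2 fold change 0.07), and Dhcr7, the last enzyme of cholesterol synthesis, had a log2 fold change of 0.17 with a range of 34.7 to 146 CPM.

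Within 2 Mb on either side of the domain 42 genes were retained, and 5 of them were DE, 4 higher and 1 lower, beside 11.9% of all genes tested, with a median log2 fold change of 0.0052. The higher genes were Rnh1, the ribonuclease inhibitor (0.36, limma FDR 0.0312), the small GTPase gene Hras (0.40, limma FDR 0.0448), the mitochondrial glutamate carrier Slc25a22 (0.48, limma FDR 0.0398) and Pidd1, a death domain protein of the PIDDosome (0.57, limma FDR 0.0365). The lower gene was Ptdss2, a phosphatidylserine synthase (-0.45, limma FDR 0.0410). On the whole of chromosome 7, 77 genes were higher and 32 lower of 939 tested, beside the same 11.9%, with a median of 0.036. By direction, 623 of all 12303 genes tested were higher and 843 lower. Higher genes thus outnumbered lower ones among the DE genes of chromosome 7 and of these neighbours, and not among those of all genes. Inside the domain 12 of 18 genes were tested, and Cdkn1c was the only DE gene among them, with a median of -0.22. None of the 5 DE neighbours was DE with voom alone.

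**Figure D4:**
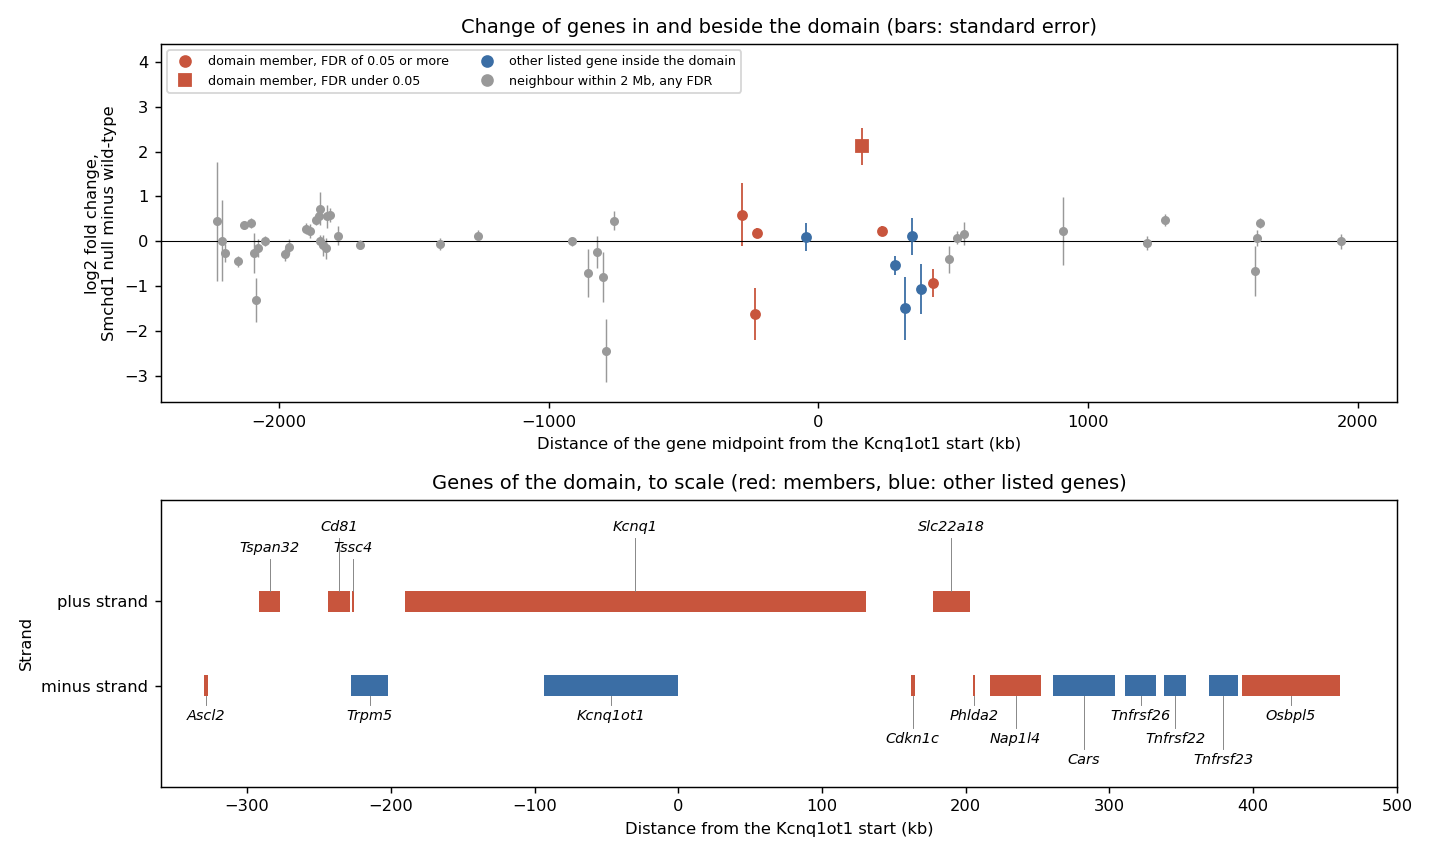
Upper panel, log2 fold change (Smchd1 null minus wild-type, bars are standard errors) of retained genes against the distance of their midpoint from the Kcnq1ot1 start in kb, for members of the domain (red), other listed genes inside it (blue) and neighbours within 2 Mb (grey). Lower panel, the genes to scale by strand. Cdkn1c, the red square, is the only gene between the ends of the domain with an FDR under 0.05.

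Of 15 genes for silencing factors with known roles at imprinted domains, 14 were retained, none was higher and 1 was lower in Smchd1 null lines, beside 11.9% DE among all genes tested, with a median log2 fold change of 0.10. The lower gene was Rnf2, the catalytic ubiquitin ligase of Polycomb repressive complex 1, at 94.0, 105 and 103 CPM in wild-type and at 87.5, 83.2, 75.5 and 69.4 CPM in Smchd1 null lines (log2 fold change -0.35, limma FDR 0.0453). Of 18 relatives and partners of the domain's genes, 14 were retained, none was higher and 1 was lower, beside the same 11.9%, with a median of -0.10. That gene was Cdkn1b, encoding p27Kip1, the closest relative of Cdkn1c. Cdkn1b was at 55.7, 102 and 115 CPM in wild-type and at 61.0, 50.3, 61.9 and 105 CPM in Smchd1 null lines, with overlapping groups (log2 fold change -0.85, SE 0.18, limma FDR 0.0267). The lowest wild-type value and the highest Smchd1 null value were those of the pair of libraries with the lowest weights. Neither gene was DE in limma without sample weights (voom alone, FDR 0.414 for Rnf2 and 0.693 for Cdkn1b).

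Among the genes whose log2 CPM was most like that of Cdkn1c over the 7 libraries, out of 11837 genes with a mean of at least 1 CPM, were Pmm2 (Pearson r 0.987), Emc7 (0.984), Pecr (0.983) and Tceanc (0.981). These correlations are over 7 points that share libraries and depth, and are a description of genes sought for their likeness. Pmm2 was abundant in both groups, at 35.6 to 40.0 CPM against 49.9 to 56.9 CPM.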

How the data were processed

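The authors deposited raw counts of reads per Entrez gene for each library, made with featureCounts from Subread alignments to mm10 after base calling with CASAVA 1.8.2. Strand and multi-mapping settings are not given in the sources used here. Libraries were made with an Illumina TruSeq kit and sequenced single-end (wild-type replicate 1) or paired-end. Symbols came from RefSeq GRCm38.p6 (25275 of 27179 IDs, 98.2% of counts), coordinates and shared exon bases from GENCODE M21, and promoters from RefSeq (7 of 10 members matched, without Kcnq1, Cdkn1c and Nap1l4).

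From the counts, R 4.3.3 with limma 3.58.1 and edgeR 4.0.16 kept genes with at least 0.5 CPM in at least 3 libraries, normalised by TMM and fitted voom with sample weights over all 7 libraries, as the methods of the study do, with Benjamini-Hochberg FDR. CPM and RPKM are per total count of the library, without TMM, and RPKM uses the counted exon length of the files. Single genes were also tested by exact permutation over the 35 splits of the lines, with no adjustment for the number of genes tested. Alternatives were voom alone, block weights, RLE normalisation, no filter, at least 10 counts in every library, each library left out, the replicate number as a block, edgeR quasi-likelihood, DESeq2 1.42.0, and wild-type replicates 2 and 3 summed. The scripts were tested on simulated data. Fits gave no call to genes the filter removed. Genes named are all 10 members, Smchd1, DE genes of the lists and of the neighbours within 2 Mb, and the 5 genes most like Cdkn1c, of which 1 is not reported here. Other listed genes were named with their values after these were seen (Kcnq1ot1, Trpm5, H19, Igf2, Ins2, Th, Cars, the Tnfrsf genes, Nadsyn1 and Dhcr7). The members and lists were chosen with earlier results of these data known. Intervals and floors cover counting error only.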

Additional observations from a re-analysis of the deposited data

Results flagged for a closer look

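In the 4 Smchd1 null lines 19 genes of the domain and its list were screened for a library whose gap to the nearest other one exceeded the critical share of the group's whole range for 4 samples (Dixon's test at the 95% level). Of these, 5 were found. Chance flags about 1 in 20 groups of values that vary freely, but for Trpm5, H19 and Igf2 the other 3 lines were at 0 counts, so that any count in the remaining line was bound to be found. Ascl2 was at 1.86 CPM (14 counts) in Smchd1 null replicate 4, far above the other 3 lines. Trpm5 was at 10.4 CPM in the same line and had 0 counts in the other lines. Osbpl5 was at 3.24 CPM in Smchd1 null replicate 3, far below the other 3 lines. H19 and Igf2 were each at 0.148 CPM in Smchd1 null replicate 1, which is 1 count beside libraries at 0 and lies under the floor of 3 counts.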

How the results depend on the processing

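With sample weights 1466 genes were DE. The number was 12 without sample weights (voom alone), 493 with block weights, 12 with edgeR and 382 with DESeq2. It was 1 with wild-type replicates 2 and 3 summed, and 507 with both libraries farthest from their groups removed (voom alone, chosen after seeing the data). With 1 library left out it ran from 1 to 1641, and it was 1 without wild-type replicate 2 and without wild-type replicate 3. It was 517 without Smchd1 null replicate 1 and 332 without Smchd1 null replicate 2. Of the domain's genes 1 was DE in the fit with sample weights, against 0 under voom alone, block weights, edgeR, DESeq2, wild-type replicates 2 and 3 summed, and both libraries removed. It was also 0 with at least 10 counts in every library, where Cdkn1c was not tested, and 0 to 2 with 1 library left out. The 2 were Cdkn1c and Cd81, without Smchd1 null replicate 3, and 0 were found without wild-type replicate 2, wild-type replicate 3 or Smchd1 null replicate 2. Summing or leaving out libraries leaves fewer samples. Otherwise the cause was not tested.

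Directions turned in these cases. Tspan32 had a log2 fold change of -0.51 without wild-type replicate 2 (up to 1.48 with another library left out) and -0.062 with wild-type replicates 2 and 3 summed. Kcnq1ot1 was at -0.12 with voom alone, -0.07, -0.40 and -0.04 without wild-type replicate 2, wild-type replicate 3 and Smchd1 null replicate 3 (up to 0.43 with another left out), -0.17 with edgeR, -0.16 with DESeq2 and -0.13 with the summed pair. Without Smchd1 null replicate 4 the difference in mean CPM turned for Ascl2 (exact permutation p = 1, 0.7 to 1 over all libraries left out) and Tspan32 (exact permutation p = 0.8, 0.5 to 0.867). For Cdkn1c, every exact permutation test with 1 library left out gave the smallest p its design allows, 0.0667 or 0.1. Groups that do not overlap stay apart when a library is left out, so these tests add no separate support. The other genes of the domain kept their direction under every alternative that gave a value.

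The replicate numbers of the labels are not a stated pairing, and deviations of same-numbered libraries had a mean correlation of -0.0341 over 3 pairs (different numbers, 0.0167 over 9). With the replicate number as a block 222 genes and 0 of the domain's genes were DE, Cdkn1c had a log2 fold change of 2.21 (limma FDR 0.0947), and Kcnq1ot1 turned to -0.12.

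The depth limits Ascl2, Slc22a18, Phlda2, Kcnq1 and wild-type Cdkn1c, which lay mostly under 3 counts.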

Other observations

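The H19 and Igf2 pair, which belongs to the neighbouring imprinted domain with its own control element, was close to absent in these lines. H19, a maternally expressed noncoding RNA, had 6, 1 and 2 counts in the wild-type and 1, 0, 0 and 0 counts in the Smchd1 null libraries, of which only the 6 counts of wild-type replicate 1 (1.65 CPM) lay above the floor. Igf2, the paternally expressed growth factor, had 4 counts in wild-type replicate 1 (1.10 CPM), 1 count in Smchd1 null replicate 1 and 0 in the other 5. Neither was retained for the test. Ins2 and Th, between these genes and Ascl2, had 0 counts in all 7 libraries. Wild-type replicate 1 was also the only library of its batch and had the highest sum of fibroblast markers, 9.37 CPM, and the part of either in these counts was not tested.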
